A study of Homo sapiens with 4 samples.

Results

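SOX2 was silenced by RNA interference in NCCIT cells, a human embryonal carcinoma line, and the transcriptome was compared with that of mock-treated cells of the same line. The comparison rests on 6 of the 12 arrays of the series, chosen by their labels, with 3 SOX2 knock-down arrays and 3 mock arrays. The other arrays hold 3 OCT4 knock-down and 3 NANOG knock-down replicates and serve below to show where the SOX2 arrays differ from them. All cells were grown in the same serum-containing medium and were exposed to the lipofection reagent Hyperfect, and the labels give harvest at day 2.5 for all, a time which the study's text states differently. The knock-down cells received esiRNA, a pool of short double-stranded RNAs cut enzymatically from one long transcript, whereas the mock cells received the reagent without any RNA, so that the effect of losing SOX2 and that of taking up double-stranded RNA cannot be told apart within this pair of groups. The paper reports that Hyperfect, alone or with irrelevant esiRNA, had no significant effect on survival and growth, a statement that does not cover expression. The replicates are described as biological, and every group comes from this single line. The mixture of cells in each culture was measured as a whole, and fewer cells of a type cannot be told apart from less RNA per cell.

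SOX2 is a transcription factor of the HMG box family which, in pluripotent cells, binds many promoters and enhancers side by side with OCT4, the product of POU5F1, a POU homeodomain factor. Both, together with the homeodomain protein NANOG, activate each other's genes and their own, and sustain a set of downstream genes that hold embryonic stem and embryonal carcinoma cells in the undifferentiated state. When this circuit is lost such cells leave self-renewal and turn on genes of differentiated lineages.

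The SOX2 esiRNA pool was made from a product amplified with the following pair of primers, shown because they define which message was targeted.
SOX2 forward primer: catcacccacagcaaatgac
SOX2 reverse primer: ggaaagttgggatcgaacaa

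Of the 47293 probes on each array, 2931 could be given a gene symbol, standing for 2854 genes. The symbols used here are those of probes which the study had listed as changed in the OCT4 knock-down (2706 probes) or only in the NANOG knock-down (225 probes), both against these same mock arrays. Its lists for the SOX2 knock-down were not analysed here. The named genes are therefore enriched in genes that respond, and no count of them is independent evidence of a response. None of the named probes belongs to SOX2, so the level of the targeted message is not analysed here and the knock-down label was not checked by it. Of 11 defining markers of embryonal carcinoma cells 8 could be read in the main test, among them POU5F1, NANOG and GDF3, and all 8 were detected on every mock array.

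Altogether 23.7% to 24.8% of the probes were detected on the mock arrays and 25.0% to 25.7% on the SOX2 knock-down arrays. Replicates correlated with r of 0.995 to 0.997 within each of the groups, over 12105 probes on the log2 scale, and SOX2 knock-down and mock arrays with r of 0.947 to 0.951. Signals below are background-corrected and quantile-normalised intensities in arbitrary units, on which undetected probes had a median of 23.6 and a highest value of 46.1. A probe is described as changed, higher or lower only where limma's Benjamini-Hochberg adjusted p was under 0.05 and the change at least 1.5-fold. Some of the genes named below were detected on only part of a group, so that their fold rests in part on signals at background. In mock these were ACTA2, BTG2, CDH1, LEFTY2 and THBS1, detected on 1 of 3 arrays, and DCX, DSC2, FOXC1 and PDLIM1, detected on 2. In the SOX2 knock-down they were DPPA3 and THBS2, detected on 1 of 3 arrays, and VENTX and GABRA5, detected on 2.

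Silencing of SOX2 altered a large part of the transcriptome. Of 12031 probes, 1603 rose (13.3%) and 1289 fell (10.7%), with 229 rising and 104 falling at least 4-fold. Among the 2827 genes with a symbol 1293 rose (45.7%) and 877 fell (31.0%), shares that reflect how the symbols were obtained. The median log2 change was -0.05 over all probes and 0.495 over the named genes, and these values are the background for the gene groups described below. Non-overlap of mock and SOX2 knock-down arrays was common to nearly all tested genes of these groups. It was seen in 41 of 41 pluripotency genes and 51 of 53 matrix genes, for example, and marks no group in particular. In 279 named genes the message was detected on no mock array and on all SOX2 knock-down arrays, while 82 showed the reverse. The calls included 272 probes that rose and 383 that fell without a symbol, among them the steepest fall of all, with a log2 change of -6.745, ahead of that of GDF3. Of 208 probes named only through the NANOG knock-down, 7 rose, 14 fell and 187 were not called. By their selection these had not been listed as changed in the OCT4 knock-down against the same mock arrays. Their low share of calls therefore reflects how the symbols were obtained and is not an independent result.

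**Figure D1:**
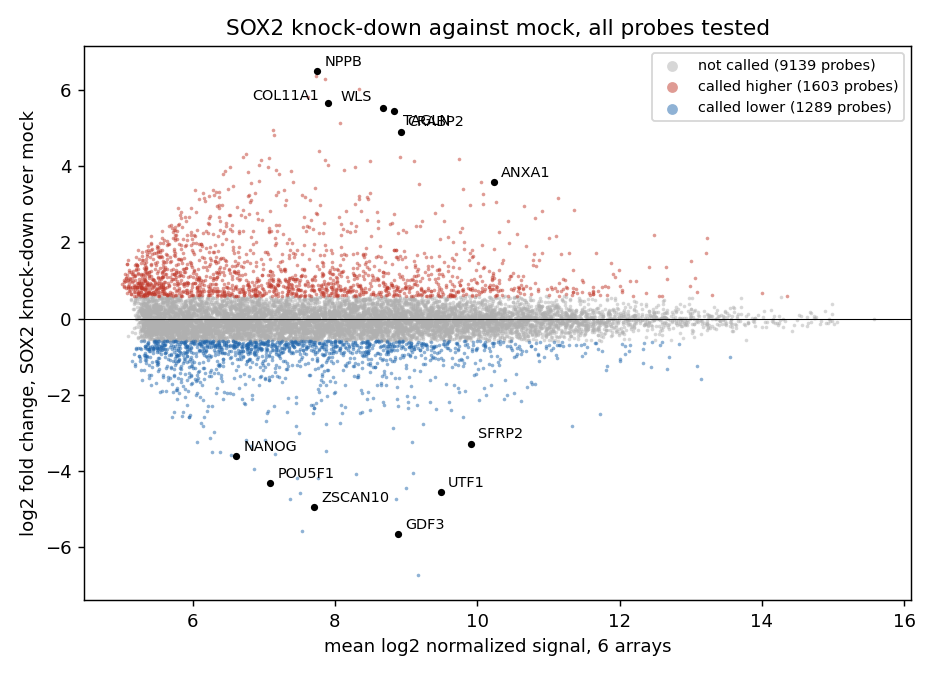
Each point is a probe, with its mean log2 normalised signal over the 6 arrays on the horizontal axis and the log2 fold change of the SOX2 knock-down over mock on the vertical axis. The 1603 red points rose and the 1289 blue points fell, grey points were not called, and 12 named genes are marked in black, from NPPB at the top to GDF3 at the bottom.

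The genes of the pluripotency circuit lost most of their signal. POU5F1 gave 669, 557 and 612 units on the mock arrays and 32.1, 28.1 and 31.3 on the SOX2 knock-down arrays, where it was not detected. This is a fall of at least 16.7-fold, taken against the dimmest detectable signal, with an adjusted p of 5.16e-11. NANOG went from 343, 363 and 320.4 to 31.7, 28.6 and 23.8 units, again without detection after the knock-down, a fall of at least 9.62-fold (adjusted p = 3.25e-11). The groups were widely separated for both genes. Both have near-identical processed copies elsewhere in the genome, so that the share of signal from the functional locus is uncertain.

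Of the list of pluripotency and embryonal carcinoma genes 41 could be tested, of which 34 fell, 4 rose and 3 were not called, with a median log2 change of -1.74. GDF3, a growth factor of the TGF-beta family that marks undifferentiated cells, showed the largest change, from 3400.0, 3284 and 3396 units on the mock arrays to 59.0, 62.5 and 78.2 after SOX2 knock-down. That is a 50.8-fold fall (log2 -5.67, SE 0.11, adjusted p = 2.6e-12). UTF1, a chromatin-associated factor of embryonic cells, fell 23.6-fold from 3652, 3213 and 3583 to 139.5, 137 and 167 units. ZSCAN10, a zinc finger protein of stem cells, read 1261, 1162 and 1060.0 units before and 37.1, 36.5 and 38.4 after and was no longer detected, a fall of at least 29.5-fold. The germ cell and stem cell gene DPPA3 fell to a log2 change of -4.59 (SE 0.17), with 780.1, 997 and 913 units in mock and 29.8, 38.1 and 44.4 after knock-down, and has near-identical copies as well. In none of these genes did the groups overlap.

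Further members showed that the loss extended over different kinds of proteins. DPPA4, a nuclear protein of pluripotent cells, fell from 514, 486 and 531 to 62.3, 73.7 and 56.0 units (log2 -3.00, SE 0.11). USP44, a deubiquitinase, fell 7.07-fold and HESX1, a homeobox repressor, at least 5-fold. The cell surface antigen THY1 fell 6.71-fold, from 732, 664 and 694 to 104, 97.8 and 109 units. The 34 falls had adjusted p-values of up to 0.000149, and SEs over the list ranged from 0.067 to 0.195. A smaller response was seen in SALL4, a zinc finger factor (log2 -0.78, SE 0.075), and LIN28A, an RNA-binding protein that blocks let-7 maturation, did not reach the 1.5-fold threshold, at 3446, 3874 and 4000.1 units in mock and 2598, 2639.8 and 2466 after knock-down. The 4 members that rose were KLF5, a zinc finger factor (at least 4.51-fold), CRABP1, a carrier of retinoic acid (4.61-fold), and the epithelial adhesion molecules CDH1 (3.37-fold) and EPCAM (1.78-fold). KLF4, a relative of KLF5, moved the opposite way, from 632, 672 and 590.5 to 122, 127 and 126 units (5.04-fold lower).

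**Figure D2:**
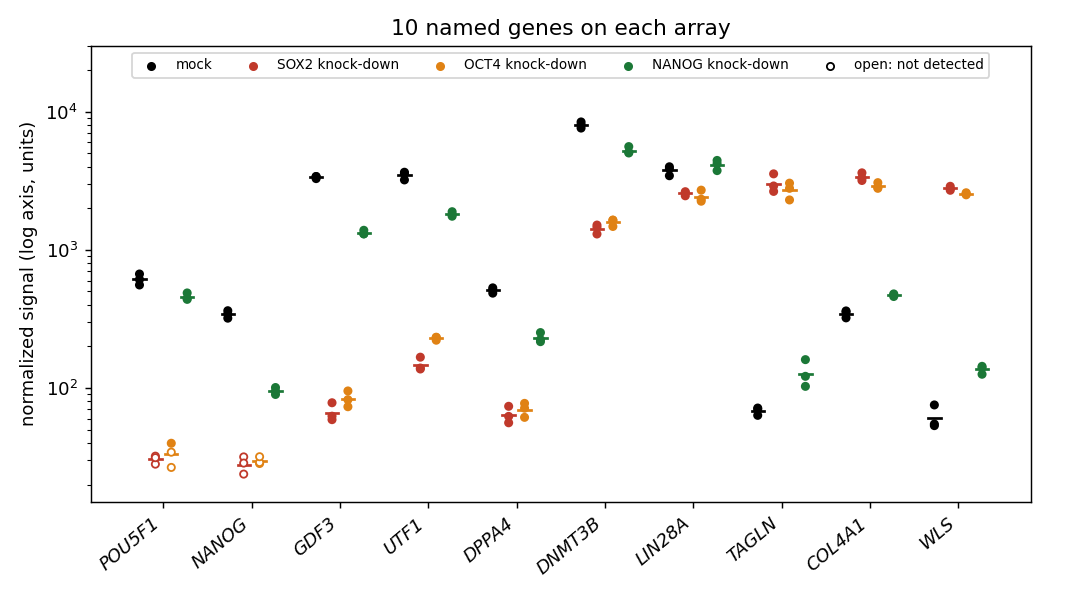
Normalised signal (log axis, arbitrary units) of 10 genes on each of the 12 arrays. Points are single arrays, open where the probe was not detected, and bars are geometric means of 3 arrays. For POU5F1, NANOG, GDF3, UTF1, DPPA4 and DNMT3B all SOX2 knock-down arrays lie below all mock and NANOG knock-down arrays, whereas TAGLN, COL4A1 and WLS lie above them.

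The promoter of NANOG is shown because it carries a SOX motif beside an octamer, the arrangement which SOX2 and OCT4 can bind jointly. Promoters were taken as the 250 bases before the RefSeq start on GRCh38.p14, and CATTGT, any 1 base and ATGCAAA in a row were searched on both strands. The capitals mark the match, which lies on the opposite strand. It overlaps the octamer ATGCAAAT except for the last base, and the full octamer is not in the NANOG window.
NANOG chr12:7789152-7789401, plus strand: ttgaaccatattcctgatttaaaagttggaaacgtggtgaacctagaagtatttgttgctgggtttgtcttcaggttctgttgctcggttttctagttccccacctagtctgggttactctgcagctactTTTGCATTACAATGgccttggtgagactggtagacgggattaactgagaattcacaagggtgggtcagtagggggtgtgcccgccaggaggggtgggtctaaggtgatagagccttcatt
Only 2 of 27305 promoters, NANOG and NRARP, hold this exact string. Of the 24 pluripotency genes with a promoter in the table NANOG was the single one, and a match describes the letters and not binding.

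Among all genes detected on every array of both groups, the largest rises were led by WLS, which escorts Wnt proteins to the cell surface. It went from 54.8, 75.4 and 53.4 units on the mock arrays to 2888, 2770.4 and 2703 after SOX2 knock-down, 46.1-fold (log2 5.53, SE 0.11, adjusted p = 3.36e-12). TAGLN, an actin-binding protein of smooth muscle, rose 44.1-fold from 71.6, 63.4 and 70.3 to 2653, 2904 and 3554 units. CRABP2, which delivers retinoic acid to nuclear receptors, rose 30.1-fold, with all knock-down arrays between 2631 and 2682 units. No mock value of these genes came near the knock-down values. Others of this kind were the actin scaffold PALLD (18.1-fold), the transcriptional repressor HES4 (17.8-fold), the LIM protein LMCD1 (17.6-fold), the growth factor HBEGF (16.4-fold), the muscle factor MEF2C (15.8-fold), the adhesion scaffold NEDD9 (15.1-fold), the calcineurin regulator RCAN1 (12.1-fold) and ANXA1 (12.1-fold), a phospholipid-binding protein.

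Genes that were not detected on any mock array carry only a lower bound. NPPB, which encodes a natriuretic peptide of heart muscle, read 23.1, 23.7 and 20.9 units on the mock arrays without detection and 1932, 1982 and 2239 after knock-down, at least 53.4-fold higher. EDN1, a vasoconstrictor peptide, rose at least 53.6-fold to 2109, 2067 and 1991 units, and ANKRD1, a nuclear and sarcomeric ankyrin protein, at least 50.4-fold. The fibrillar collagen COL11A1 (at least 41.3-fold), the GABA receptor subunit GABRP (at least 38.6-fold) and the secreted protease HTRA1 (at least 20.5-fold) completed the 6 with the largest fitted changes of this kind. All of them had adjusted p-values of 3.73e-10 or less.

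On the falling side, apart from GDF3, UTF1 and DPPA4, the methyltransferase-like protein TMT1A went from 2221, 2394 and 2572 to 92.4, 91.2 and 84.1 units (26.8-fold). HAS3, a hyaluronan synthase, fell 16.9-fold, and ETV4, an ETS factor that responds to FGF signals, fell 11.1-fold from 864, 718 and 778 to 63.2, 67.7 and 82.0 units. SFRP2, a secreted Wnt antagonist, dropped from 3080.3, 3022 and 2942 to 296, 301 and 326 units (9.8-fold, adjusted p = 2.39e-12), and PDZD4 fell 9.49-fold. The remaining 4 of the 12 carried only locus names, LOC338756, LOC338759, LOC221683 and LOC138255, and fell between 7.38- and 21.8-fold. The DPPA3 probe bore the symbol LOC338759 too before it was updated, so that LOC338759 and DPPA3 may be the same gene read by different probes. RHD, the Rhesus D antigen, and the retroviral transcript HUMRTVLH3 were detected in mock only and fell at least 5.78- and 9.13-fold, but both have close relatives in the genome.

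Nearly all genes of the contractile apparatus that could be read rose. Of 72 listed, 34 carried a symbol and were tested, and the rest could not be read. Of the 34 tested 33 rose and none fell, with a median log2 change of 1.40 and adjusted p-values of up to 0.000256. The symbols came from genes already listed as changed in the other knock-downs, so these counts do not describe the whole list. Besides TAGLN, the Z-disc protein PDLIM1 rose 21.3-fold from 42.5, 52.8 and 47.9 to 1045, 964 and 1035 units. The smooth muscle actin ACTA2 rose 15-fold, from 53.7, 27.5 and 35.1, detected on 1 array, to 584, 538 and 555, and the cardiac actin ACTC1 at least 5.98-fold. Actin genes are highly alike in sequence, and probes may share signal between them. CNN1 (calponin, at least 7.6-fold), CALD1 (caldesmon, 5.74-fold) and TPM1 (tropomyosin, 4.29-fold) are regulators of actomyosin and rose likewise. The single gene not called was TPM3, at 4366, 4409.9 and 4428 units in mock and 3176, 3228 and 3279 after knock-down, and another probe of TPM3 fell.

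Extracellular matrix genes, of which 53 of 110 listed could be tested, gave a similar count, with 49 rising, 2 falling and 2 not called (median log2 1.505). Network-forming collagens of basement membranes were raised, with COL4A1 at 322, 355 and 362 units in mock and 3322, 3615 and 3182 after knock-down (9.74-fold, adjusted p = 6.51e-12). Fibronectin, FN1, rose 6.8-fold from 245, 245 and 289.5 to 1757, 1922 and 1614 units. THBS1, an activator of latent TGF-beta, rose 13.8-fold from a mock level detected on 1 array, TGFBI 9.16-fold and the microfibril component FBN2 at least 7.66-fold. CCN2, a matricellular growth factor, rose 7.2-fold and reached 6787, 7402 and 6971 units. The falls were seen in THBS2, 9.1-fold from 311, 318 and 343 to 49.3, 31.2 and 29.2 units, and in COL9A1 (1.55-fold). LAMA2 and COL9A2 were not called. THBS2 and THBS1, which are close relatives, thus moved in opposite directions.

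Of 24 integrin and junction genes 20 rose and 3 fell, with a median log2 change of 0.98. The mesenchymal cadherin CDH11 was not detected in mock, at 20.5, 20.2 and 19.8 units, and read 225, 244 and 171 after knock-down, at least 5.5-fold higher. The placental cadherin CDH3 rose at least 5.48-fold, the desmosomal DSC2 7.11-fold and the desmosome-associated PERP 5.87-fold, while ITGAV, an integrin that binds fibronectin and latent TGF-beta, rose at least 3.49-fold. The 3 that fell were THY1, the integrin ITGA9 (log2 -0.95, SE 0.088) and the tight junction protein F11R (log2 -0.78, SE 0.08).

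Regulators of mesoderm and mesenchyme rose in 15 of 21 cases and fell in none, with a median log2 change of 1.61. HAND1, a basic helix-loop-helix factor of heart and extraembryonic mesoderm, was already present at 536, 608 and 590.0 units in mock and increased to 4900.3, 4263 and 4342 (7.79-fold, adjusted p = 7.9e-11). TBX3, a T-box factor, went from an undetected 25.7, 27.2 and 25.7 to 265, 261 and 261 units, at least 6.84-fold. RUNX1, a regulator of blood formation, read 23.9, 20.3 and 24.8 in mock, without detection, and 135, 146 and 145 after knock-down, at least 3.7-fold. Receptor and skeletal regulators belonged to this group too, with PDGFRB rising at least 6.6-fold, FOXC1 8.66-fold and SOX9, a relative of SOX2, at least 5.93-fold. For each of these genes all knock-down arrays lay above all mock arrays.

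Other lineages were covered unevenly. None of 8 defining trophoblast markers, 6 endoderm markers and 5 muscle markers carried a symbol, and only DCX of 6 neural markers and TEK of 6 blood and endothelial markers did. Symbols came only from genes listed as changed in the other knock-downs, so the rest could not be read here. The paper reports no significant array expression of CDX2, KRT7, CSH1, HCG, AFP, GATA4 or HNF4A after SOX2 knock-down. By real-time PCR it found CDX2 and KRT7 raised only transiently after OCT4 knock-down, and it concludes that NCCIT cells did not become trophoblast. The wider list of trophoblast and amnion genes had 14 members tested, of which 9 rose and 1 fell. Apart from GABRP and HAND1, VTCN1 rose at least 3.98-fold, and the simple-epithelium keratins KRT8 and KRT18 rose 4.34- and 3.3-fold to the highest signals of the list, 19111, 20109.8 and 20575 and 17282, 16846 and 17449 units. Keratins have many processed copies. TFAP2A, a trophoblast and neural crest factor, fell from 67.1, 73.8 and 64.8 units to an undetected 22.6, 22.0 and 22.4. In the endoderm list 5 of 6 rose, namely COL4A1, FN1 and LAMA1, which encode matrix proteins, the endocytic adaptor DAB2 (2.04-fold) and the chemokine receptor CXCR4 (6.04-fold), whereas FOXA3, the only DNA-binding factor among them, fell at least 1.87-fold.

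Neural genes went in both directions, with 14 of 22 rising and 6 falling. LHX2, a LIM homeobox factor, rose 5.17-fold from 192, 169.7 and 155 to 919, 836 and 910.2 units and the intermediate filament NES 5-fold. FEZ1, involved in axon growth, fell 3.8-fold from 717, 698 and 649 to 181, 186 and 176 units, and OTX2, a factor of forebrain and of pluripotent cells, 2.83-fold. The neuronal marker DCX read 51.7, 44.9 and 37.0 units in mock and 64.5, 62.7 and 47.7 after knock-down and was not called. Over the homeobox genes 15 of 28 rose, 8 fell and 5 were not called. DLX2 showed the largest rise, from 283, 239 and 248 to 1943, 2006 and 2197 units (7.98-fold), and PKNOX2 rose at least 3.93-fold. Besides POU5F1, NANOG, HESX1 and OTX2, a large fall was that of VENTX, from 820.4, 717 and 729.7 to 37.5, 43.3 and 43.9 units (18.2-fold).

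**Figure D3:**
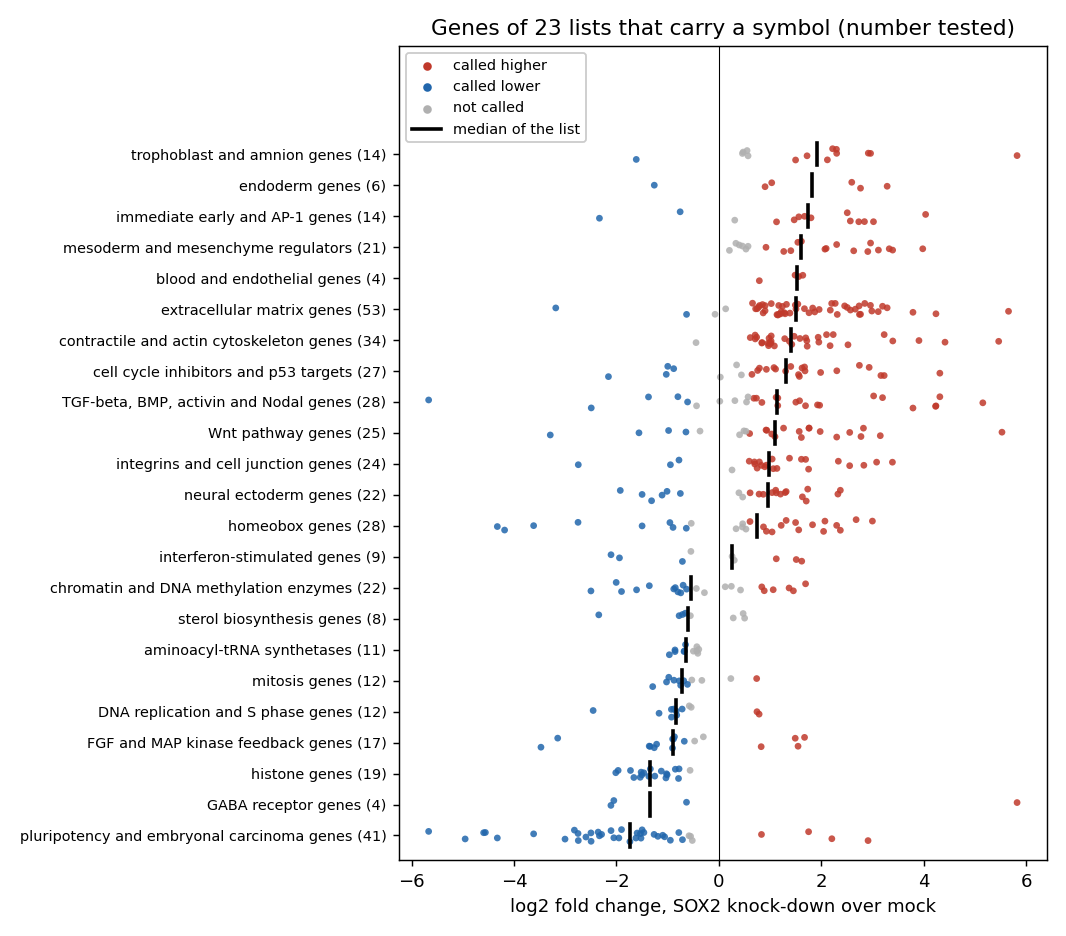
Each point is a gene with a symbol, placed by its log2 fold change of the SOX2 knock-down over mock. Rows are 23 gene lists with the number of genes tested in brackets, ordered by their median, which is drawn as a bar, and colours give the call. The pluripotency list has its median at -1.74 and the trophoblast and amnion list at 1.92, while the median over all named genes was 0.495.

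Signalling genes changed in several families. In the TGF-beta, BMP, activin and Nodal group 18 of 28 rose and 5 fell (median log2 1.13). Ligands and their regulators were prominent. LEFTY2, an inhibitor of Nodal, went from 42.5, 51.4 and 42.3 units in mock to 1592, 1564 and 1668 after knock-down (35.6-fold, with detection on 1 mock array, adjusted p = 6.74e-13), whereas the neighbouring LEFTY1, at 93.6, 80.6 and 85.6 and 48.4, 61.3 and 61.1 units, was lower by a log2 change of -0.61 (SE 0.12). The coding sequences of the pair are nearly identical, and the division of signal between them is uncertain. The BMP antagonist GREM1 rose at least 13.9-fold and the activin-binding FSTL1 8.12-fold. Of the ligands, BMP4 rose 3.8-fold from 74.9, 71.2 and 73.0 to 274, 268 and 292 units and TGFB2 at least 2.43-fold. On the receptor side BMPR1A fell (log2 -1.38, SE 0.091). INHBE, an activin subunit, fell 5.63-fold, along with GDF3 and the activin antagonist FST (log2 -0.80, SE 0.077).

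Genes of FGF signalling went mostly the other way, with 11 of 17 falling and 4 rising (median log2 -0.89). Among ligands FGF19 fell from 228, 247 and 205 units to an undetected 23.6, 26.6 and 26.5, at least 6.37-fold, and FGF2 from 50.5, 61.0 and 76.1 to an undetected 24.0, 25.9 and 22.3, at least 1.74-fold. The receptors FGFR4 and FGFR3 fell 2.54- and 2.32-fold, from 911, 900.4 and 829.8 to 324, 338 and 381 and from 1839.8, 1874 and 1684 to 768, 744 and 809 units. Transcriptional targets and feedback inhibitors of the pathway fell as well, with IL17RD at a log2 change of -1.26 (SE 0.11) and DUSP6 at -0.91 (SE 0.13). The 4 that rose were the phosphatase DUSP1 (3.19-fold), FGF18 (at least 1.73-fold), FLRT3 (1.77-fold) and FGFRL1 (2.81-fold), a receptor-like protein that lacks a kinase domain.

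In the Wnt pathway 17 of 25 genes rose and 4 fell (median log2 1.10). WLS stood far above the others. The nuclear effector LEF1 rose at least 3.8-fold, the receptor FZD2 7.07-fold and the planar polarity gene PRICKLE2 6.84-fold. The antagonists split, since SFRP1 rose 8.88-fold from 114.7, 141 and 103 to 1142, 1134 and 902 units and DKK3 4.93-fold, while SFRP2 fell as given above. The other falling genes were TLE2, a corepressor (at least 2.57-fold), PORCN, which acylates Wnt proteins (log2 -0.98, SE 0.10), and TCF7L1, a repressor of Wnt targets (log2 -0.64, SE 0.066).

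Genes that restrain the cell cycle were raised. Of 27 cell cycle inhibitors and p53 targets 20 rose and 4 fell, with a median log2 change of 1.30. CDKN2B, an inhibitor of CDK4 and CDK6 that TGF-beta induces, went from 22.2, 23.5 and 27.2 units without detection to 488, 519 and 441, at least 12.6-fold. CDKN1A, which encodes p21, rose 3.21-fold, from 159.6, 138.9 and 159 to 490.4, 476 and 499 units, and the stress gene GADD45A 3.96-fold. SESN3 (9.36-fold), PLK2 (at least 5.59-fold) and the antiproliferative BTG2 (6.69-fold) rose further. The 4 that fell were RPRM (4.46-fold), SESN2, PMAIP1 and FOXO1, and the list also holds the cyclin CCND1, which rose 2.65-fold. In immediate early and AP-1 genes 11 of 14 rose, with JUN at 35.1, 37.3 and 34.0 units in mock, undetected, and 243, 229 and 233 after knock-down (at least 5.61-fold), and FOSL2 at least 6.59-fold. FOS itself fell (log2 -0.76, SE 0.098), and EGR1 was not called. The larger of the 2 falls in the list was log2 -2.33.

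DNA replication and mitosis genes showed small falls. For replication and S phase 12 of 65 listed genes could be tested, of which 8 fell and 2 rose. RFC5, a subunit of the clamp loader, was the exception in size, falling 5.49-fold from 380.4, 359.9 and 384 to 74.1, 64.1 and 67.1 units. The origin recognition subunits ORC1 and ORC2 (log2 -0.82 and -1.17), the helicase subunit MCM7 (-0.72), CCNA2 (-0.83), E2F2 (-0.88), UNG (-0.93) and DUT (-0.93) fell less. SLBP, which binds histone messages, and UHRF1, which directs maintenance methylation of DNA, rose 1.72- and 1.67-fold. Among 12 mitosis genes tested, of 61 listed, 8 fell and 1, the cytokinesis protein ANLN, rose. Kinase genes AURKA and PLK1 changed by log2 -0.78 (SE 0.062) and -0.88 (SE 0.083).

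Histone genes were lower as a group. All 19 of the list, which holds the clustered genes and H2AX, were lower in the knock-down, 18 of them past the threshold, and the median log2 change was -1.34. In every one of the 19 genes the highest knock-down array was below the lowest mock array, a separation that nearly all named genes of the other lists shared. H3C14 fell at least 3.72-fold, H2AC25 3.91-fold and H4C14 3.31-fold, the latter from 3435, 3135 and 3240.3 to 932, 889.9 and 1159 units. The abundant H2BC12 fell from 6082, 5916 and 6154 to 2811, 2556 and 2969 units (log2 -1.12, SE 0.073). Not called was H2AX, the variant phosphorylated at DNA breaks, at 7755, 6876 and 6550.4 units in mock and 4813, 4398 and 5119 after knock-down. Genes of this family are near-identical, so single members are uncertain and the probes may share signal.

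**Figure D4:**
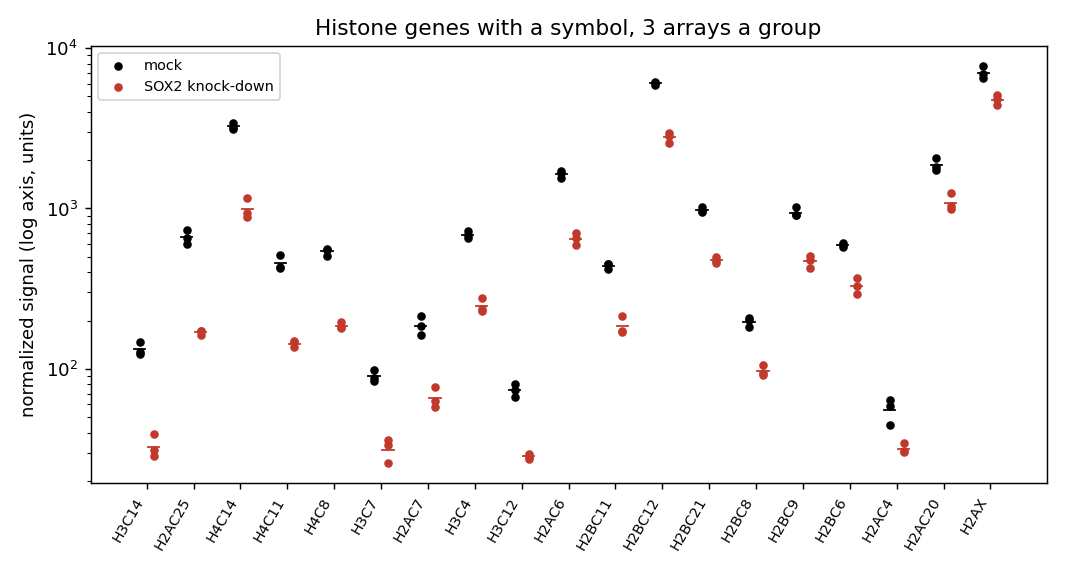
Normalised signal (log axis, arbitrary units) of the 19 histone genes on the 3 mock and 3 SOX2 knock-down arrays, ordered by fold change. Points are arrays and bars their geometric means, and in each gene all 3 knock-down arrays lie below all 3 mock arrays.

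The promoters of 3 H2B genes are shown because they carry the octamer ATGCAAAT, a motif of POU factors which include OCT4 and the ubiquitous OCT1. It was searched in 250 bases before each start on both strands, and capitals mark it. In these genes it reads ATTTGCAT, the reverse complement.
H2BC11 chr6:27132796-27133045, minus strand: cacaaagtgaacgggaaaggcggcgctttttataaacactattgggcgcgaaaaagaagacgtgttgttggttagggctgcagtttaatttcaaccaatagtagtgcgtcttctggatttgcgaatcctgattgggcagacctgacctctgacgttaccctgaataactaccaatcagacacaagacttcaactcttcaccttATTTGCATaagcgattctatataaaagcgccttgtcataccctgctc
H2BC12 chr6:27146859-27147108, minus strand: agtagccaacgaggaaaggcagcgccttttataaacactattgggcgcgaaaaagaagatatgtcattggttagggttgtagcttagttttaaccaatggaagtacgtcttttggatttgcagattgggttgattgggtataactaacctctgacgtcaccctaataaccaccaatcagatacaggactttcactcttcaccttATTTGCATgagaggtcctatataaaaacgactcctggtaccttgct
H2BC21 chr1:149886683-149886932, minus strand: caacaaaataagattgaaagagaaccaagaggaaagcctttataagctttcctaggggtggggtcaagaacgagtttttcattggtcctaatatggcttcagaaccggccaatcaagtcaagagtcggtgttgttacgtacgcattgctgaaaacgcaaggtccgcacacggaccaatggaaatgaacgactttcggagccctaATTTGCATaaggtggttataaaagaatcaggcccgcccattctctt
In H2BC11, H2BC12 and H2BC21 the match lies 46 or 47 bases before the start. All 6 H2B genes hold it, and 11 of the 18 histone genes with a promoter in the table do (61.1%), against 454 of 27305 promoters in all (1.66%). Neighbouring H2A and H2B genes can face each other and share a window. Over the named genes the octamer was present in 21 of 619 promoters of those that fell (3.39%) and 11 of 902 of those that rose (1.22%). Without the histone genes it was present in 10 of 602 promoters of those that fell (1.66%), the share over all promoters. These shares are descriptions with no test, and the H2B genes fell by log2 -0.85 to -1.25, within the range of the histone genes as a whole.

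Chromatin regulators changed unequally, with 11 of 22 falling and 6 rising. DNMT3B, the de novo DNA methyltransferase of early embryonic cells, fell 5.65-fold from 7628, 8446 and 8068 to 1513, 1457 and 1304 units (adjusted p = 1.14e-10). JARID2, a partner of Polycomb repressive complex 2, fell 4.02-fold, and PHC1 of Polycomb repressive complex 1 fell 3.74-fold, while its relative PHC2 rose 3.23-fold from 105, 112 and 93.8 to 322, 341 and 338 units. The acetyltransferase KAT7 (3.05-fold) and the demethylase KDM4A (2.56-fold) fell, whereas the deacetylase HDAC9, undetected in mock, rose at least 1.66-fold and ARID3A 2.58-fold.

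Metabolic groups had small median changes, log2 -0.65 for aminoacyl-tRNA synthetases and -0.61 for sterol genes. No aminoacyl-tRNA synthetase rose, and 6 of 11 fell, AARS1 most at log2 -0.97 (SE 0.076), followed by YARS1 (-0.86) and WARS1 (-0.86), while CARS1, FARSA and MARS1 lay between -0.68 and -0.65. In all 11 the groups did not overlap, which was also so in 17 of 17 FGF genes and 12 of 12 replication genes and is not particular to synthetases. Of 8 sterol genes 4 fell, and the largest fall of the list was log2 -2.35. SQLE, an enzyme of cholesterol synthesis, fell less, from 968, 1090.2 and 1181 units in mock to 656, 664 and 568 after knock-down (log2 -0.78, SE 0.10). DHCR7, INSIG1, SREBF1 and TM7SF2 were not called.

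Since the mock cells received no RNA, interferon-stimulated genes, which can respond to double-stranded RNA, were examined as well. Of 9 tested 3 rose, 3 fell and 3 were not called. ISG15 rose 3.07-fold from 195, 188 and 197 to 576, 528 and 687 units, IRF1 2.85-fold and B2M 2.17-fold, whereas TRIM22 fell at least 3.19-fold, IFITM1 3.84-fold and IFI16 by a log2 change of -0.71. In the NANOG knock-down, which also received esiRNA, the log2 differences from mock were -0.10 for ISG15, 0.15 for IRF1, 0.12 for B2M, 0.24 for TRIM22, -0.87 for IFITM1 and 0.14 for IFI16, and the highest of the 9 was 1.25 for ISG20. The part of double-stranded RNA in the SOX2 result was not tested.

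The OCT4 knock-down allows a direct comparison with no mock array in the difference itself. The mock and NANOG knock-down arrays still entered the normalisation and the shared estimate of spread. None of 12432 probes differed between the SOX2 and OCT4 knock-downs by limma with Benjamini-Hochberg adjustment, where the smallest adjusted p was 0.0622, and 1170 (9.41%) had an unadjusted p under 0.05. The median absolute log2 difference was 0.081, against 0.301 between the SOX2 knock-down and mock, and 64 probes were at least 1.5-fold apart. The widest gap of all was that of H2AZ2, a histone variant, which was not detected in the SOX2 knock-down at 24.3, 22.1 and 20.3 units and read 1958, 2139 and 2223.9 in the OCT4 knock-down, at least 59.2-fold apart. Its SE of 1.10 comes from a fit that includes the mock arrays, which ranged over 5.69 on the log2 scale for H2AZ2, and the adjusted p of 0.0622 became 3.57e-09 with only the arrays of both knock-downs in the limma fit. For 11305 probes (90.9%) the 95% interval of the difference lay within 1.5-fold in both directions. SOX2 and OCT4 knock-down arrays correlated with r of 0.991 to 0.996.

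The gene with the smallest p was UTF1, at 139.5, 137 and 167 units in the SOX2 knock-down and 222, 232 and 233 in the OCT4 knock-down (log2 -0.64, SE 0.086, adjusted p = 0.0622), and the groups did not overlap. For GDF3 the difference was -0.33 with a 95% interval of -0.57 to -0.09, and for TAGLN 0.16 with -0.19 to 0.51. POU5F1 read 39.8, 34.3 and 26.6 and NANOG 28.4, 28.9 and 31.8 units in the OCT4 knock-down, at or near the detection limit as in the SOX2 knock-down. Among the gene lists, 33 of 34 pluripotency genes, 48 of 53 matrix genes and 15 of 16 histone genes that could be compared had an interval within 1.5-fold. Against mock, the changes in the SOX2 and OCT4 knock-downs, which share these controls, were 5.53 and 5.40 for WLS, 2.96 and 3.20 for HAND1 and -2.50 and -2.34 for DNMT3B.

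**Figure D5:**
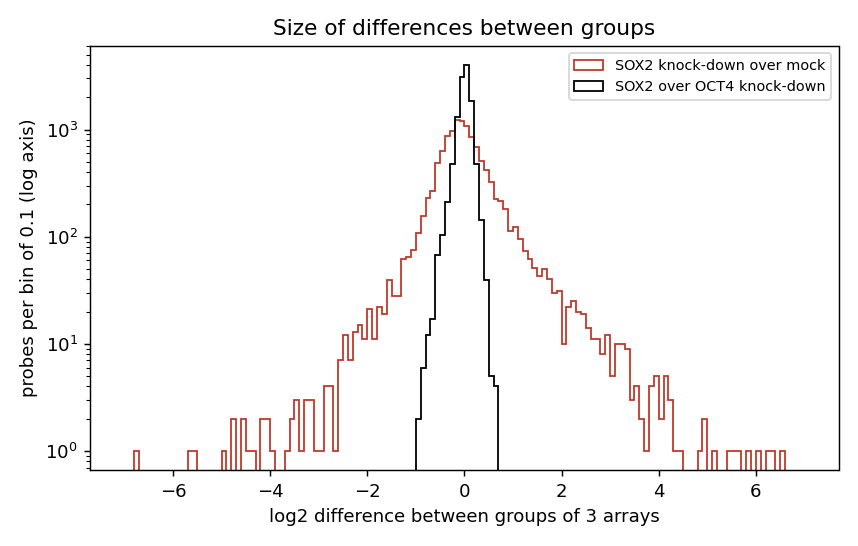
Number of probes per bin of 0.1 (log axis) by the log2 difference between groups of 3 arrays, for the probes tested in the SOX2 knock-down against mock. The red line gives the SOX2 knock-down over mock and the black line the SOX2 over the OCT4 knock-down, whose differences lie much closer to 0.

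The NANOG knock-down stood apart. Between the SOX2 and NANOG knock-downs 2588 of 12193 probes differed (21.2%), 1408 of them higher and 1180 lower with SOX2 silenced. POU5F1 remained at 446, 438 and 488 units in the NANOG knock-down and was at least 12.5-fold lower in the SOX2 knock-down, where it was not detected (adjusted p = 2e-10). The message of NANOG itself read 101, 89.8 and 94.9 units there, above the 31.7, 28.6 and 23.8 undetected units of the SOX2 knock-down by at least 2.68-fold (adjusted p = 2.68e-08). Of 37 pluripotency genes 29 were lower in the SOX2 than in the NANOG knock-down, as were 18 of 19 histone genes, and 32 of 34 contractile genes were higher. The 21.2% over all probes is not the matching background for these counts. The symbols came mainly from genes changed in the OCT4 knock-down, and the share over all named genes is not given here. The counts are therefore descriptions and not traits particular to these lists. FEZ1 and OTX2, which fell after SOX2 knock-down, had log2 differences from mock of 1.85 and 1.26 in the NANOG knock-down, with FEZ1 at 2394, 2565 and 2488 units in the NANOG knock-down and 181, 186 and 176 in the SOX2 knock-down (log2 -3.78, SE 0.07). No aminoacyl-tRNA synthetase differed by 1.5-fold between these knock-downs, but some came close. The log2 differences ranged from -0.57 for FARSA (limma adjusted p = 0.000276) to 0.13 for SARS1, with AARS1 at -0.53 (limma adjusted p = 9.71e-05).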

How the data were processed

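RNA of 4 groups of 3 replicates was measured on Illumina bead arrays with one dye. The authors deposited one scanner table per array, holding the intensity of each of 47293 probes, not normalised, and a detection fraction between 0 and 1. Per the submitters' processing notes BeadStudio 1.0 was used. A further table deposited by the authors gives their mean intensity per group after background subtraction and rank-invariant normalisation. Here the intensities were background-corrected with limma 3.58.1 (R 4.3.3) by normexp, using the detection values, with an offset of 16, quantile-normalised over the 12 arrays and taken as log2, so that fold changes of dim probes are understated. Probes detected at 0.99 or more on at least 3 of the 6 arrays compared were kept. One linear model with empirical Bayes variances was fitted over all 12 arrays. Calls required a Benjamini-Hochberg adjusted p under 0.05 and 1.5-fold. For probes detected on no array of a group, bounds use the higher of the dimmest detected signal and the probe's own. The script was tested on simulated data. The precision is limited by 3 arrays per group.

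Symbols were taken by probe identifier from a supplementary table of the study, of which the sheets on the SOX2 knock-down and part of that on genes lowered by the NANOG knock-down were not analysed here. Its ratios and p-values were not used. Of the symbols, 2481 were looked up through RefSeq accessions and 872 changed. Where a gene had several probes, the one with the highest mean signal stands for it. Of 67 such genes 5 had probes called differently, none in opposite directions. The members and lists were chosen with earlier results of these data known. Named were the 12 largest rises and falls detected throughout, the 6 largest in each direction detected in one group only, the core factors, and per list up to 8 called genes, or all genes of lists up to 12. Other names, mainly exceptions within a list and markers, were chosen after their values were seen. A few genes that the rule names are not reported here. Promoters are RefSeq, GRCh38.p14. The alternatives were a floor of 20, an offset of 50, median scaling, other filters on dim probes, other samples in the fit, a replicate block, leaving out each array, no fold threshold and the methods' t-test.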

Additional observations from a re-analysis of the deposited data

How the results depend on the processing

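Without the fold threshold 6667 probes passed, 3084 higher and 3583 lower. Requiring detection on all 6 arrays left 990 rises, since genes silent in one group then drop out. The other counts for SOX2 knock-down against mock stayed within 1.5 times, among them 2081 calls with an offset of 50, 3385 with a floor of 20 and 2915 to 2963 on leaving out each array. Median scaling moved the share of calls that were rises from 55.4% to 52.3%. With the replicate block 2893 probes were called in place of 2892. Deviations of same-numbered arrays of the SOX2 knock-down and mock correlated with r of -0.174, 0.036 and -0.172. These few values rest on deviations around means of 3 arrays and cannot settle whether arrays were paired. Differently numbered arrays ranged from -0.181 to 0.302. The highest was SOX2 knock-down replicate 3 with mock replicate 1. Replicate 1 with mock replicate 2 and replicate 2 with mock replicate 3 both gave 0.159. Whether arrays shared batches under different numbers was not tested. Between the SOX2 and OCT4 knock-downs, where the count was 0, it became 21 with median scaling, 14 with an offset of 50, 20 by the methods' t-test (1 after Benjamini-Hochberg adjustment) and 2 with only the arrays of both groups, H2AZ2 among them. On leaving out each array it ranged from 0 to 4, with 4 without SOX2 knock-down replicate 3 and 1 without OCT4 knock-down replicate 3. The cause was not tested. None of the 194 genes chosen by the naming rule changed direction under any alternative run. In 18 of them the call changed under at least one, with 22 of 2849 values newly past the threshold and 11 no longer past it. Genes under background in one group carry only a bound, and genes named here were chosen among responders.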

Other observations

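Blood and endothelial genes with a symbol numbered 4 and all of them rose after SOX2 knock-down. TEK, the angiopoietin receptor, and VWF, the von Willebrand factor, were not detected in mock and rose at least 1.89- and 1.94-fold, with TEK at 23.5, 24.3 and 22.1 units on the mock arrays and 77.4, 75.2 and 65.3 after knock-down. GP1BB, a platelet glycoprotein subunit, rose 2.95-fold and the endothelial adhesion molecule ESAM 1.73-fold. Among GABA receptor genes GABRP rose, while GABRA5 fell from 171, 167 and 199 to 43.2, 41.3 and 39.9 units and GABBR1 by a log2 change of -0.63 (SE 0.087).

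One probe of H2AZ2, a histone variant gene, stood apart and was chosen after its values were seen. Its deposited intensity was 936.6 on mock replicate 2 but 78.8 and 86.6 on the other mock arrays, where it was not detected. It read 112.9, 104.1 and 91.5 on the SOX2 knock-down arrays, between 2710 and 2883 on the OCT4 knock-down arrays, and between 1428 and 2186 on the NANOG knock-down arrays. The range within mock was 5.69 on the log2 scale after normalisation, against 1.44 for the next widest of 47293 probes, and no other group held a probe with a range above 1.84. The probe did not enter the comparison of SOX2 knock-down with mock.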
